A study of Mus musculus with 4 samples.

Results

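The 57 genes described here act in G2 and mitosis, the part of the cell cycle between the end of DNA synthesis and the separation of the daughter cells. They were taken by symbol from a list of genes with roles late in the cell cycle. All 57 were found among the 31053 genes counted in each of 2 single-cell experiments on mouse T-cell progenitors, and all 57 passed the filter on low values (a mean of at least 5 counts per 1000000 molecules, CPM, and at least 10 molecules in the lowest culture).

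Bone marrow progenitors that carry a Bcl2 transgene, which protects cells from death, were grown on OP9-Dll1, a stromal line displaying a Notch ligand, with IL-7 and Flt3 ligand at 10 ng/ml each. In the overexpression arm the mice were 8 to 10 weeks old (B6.Bcl2), and MSCV-Runx1-mCherry or MSCV-empty-mCherry was delivered on day 2. Those cultures were harvested on day 4 or 6 of culture, and live, lineage-negative, mCherry-positive, CD45-positive cells were sorted. In the knockout arm, B6.Cas9;Bcl2 progenitors received guide vectors on day 2: E42-gRunx1-humanNGFR with E42-gRunx3-mTurquoise (3 pairs of guide RNAs per gene), or a pair of E42-gControl vectors with the same reporters and guides against luciferase. They were harvested on day 5 or 8, and live, lineage-negative, mTurquoise-positive, hNGFR-positive, CD45-positive cells were sorted. Every culture of both arms therefore carried the Bcl2 transgene and a retroviral vector. Each culture was stained with its own hashtag, an antibody carrying a short DNA barcode, and equal cell numbers were pooled. The labels give 4 to 5 days of culture for experiment 1 and 4 to 8 days for experiment 2. The columns of the hashtag tables name no culture, so for none of the 8 hashtags of an experiment are the vector and the day of harvest known. They are treated as cultures of unknown condition, with no averages over them, no groups and no tests of a difference between them. A check for a single hashtag far from the rest is the only test run over them. Intervals are 95% intervals that cover counting error only, and how far replicate cultures of 1 condition differ is not known here.

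Entry into mitosis is driven by the kinase Cdk1 with its B-type cyclins. The chromosomes are then condensed, attached through kinetochores to the spindle and held until the spindle checkpoint is satisfied, after which the anaphase-promoting complex marks cyclin B for destruction. Most mRNAs of this programme are made late in the cycle and are scarce in resting cells, so that their level in a culture follows how many cells are in G2 and mitosis. Early T-cell progenitors divide several times before they commit to the T lineage. In a summed level, more dividing cells and more RNA per dividing cell cannot be told apart.

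In experiment 1, 8797 cells had a hashtag call, with 691 to 1291 cells and 14502385 to 38067298 molecules (UMIs, unique molecular identifiers) per hashtag. In experiment 2, 8335 cells had a call, with 855 to 1312 cells and 22272716 to 42684236 UMIs per hashtag. The median cell held 24753 UMIs in experiment 1 and 26338 in experiment 2. The experiments shared 28 cell barcodes among the cells with a call. The labels name progenitors with high c-Kit, a growth factor receptor, and the sorts selected CD45. Kit lay between 54.3 and 89.0 CPM over the hashtags of experiment 1 and between 26.4 and 56.5 in experiment 2, and Ptprc, which encodes CD45, was at 135 CPM or more in all 16 hashtags. Col1a1, a collagen gene of stromal cells, reached at most 10.1 CPM in experiment 1 and lay between 24.8 and 116 CPM in experiment 2.

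The promoters of these genes are shown first, because many genes of late cell-cycle timing carry a common pair of short elements. The CHR (cell cycle genes homology region) is the site read by the DREAM and MuvB complexes, and the CCAAT box is read by NF-Y. RefSeq promoters of build GRCm38.p6, from 250 bases before to 50 after each start, were in the table used for 50 of the 57 genes, with 56 starts in all. They were searched on both strands for the CHR, spelled TTTGAA, and for the letters CCAAT. A second accepted spelling of the CHR was TTCGAA. A CHR stood in the promoter of 39 of the 50 genes (78.0%), beside 21.7% of all genes in the table and 20.2% of the protein-coding ones. A CCAAT box likewise stood in 39 of the 50 (78.0%), beside 41.1% of all genes. Both were present in 32 of the 50 (64.0%), beside 8.61% of all genes. The 44 S-phase genes compared throughout, which encode replication factors and are read out earlier in the cycle, had 32 genes in the table. A CHR stood in 7 of those 32 (21.9%) and a CCAAT box in 23 (71.9%). The 50 other genes of the G2 and mitosis pathway had 37 genes in the table, with a CHR in 23 (62.2%) and a CCAAT box in 25 (67.6%). The share with a CHR was thus near that of all genes for the S-phase list and well above it for both lists of late genes, and the CCAAT box was frequent in all 3. In the 100 bases before the start alone, a CHR stood in 16 of the 50 members (32.0%), beside 7.18% of all genes and 6.43% of the protein-coding ones. The distance to the start also differed: 33 of the 55 CHR matches in these promoters (60.0%) began between 50 bases before and 30 bases after the start, beside 19.3% of the 4271 matches in protein-coding promoters. Of the 55 matches, 1 shared a base with a CCAAT box. A match is a string of letters and was not tested as a binding site.

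The 130 bases before the start are printed for 8 genes that recur in the results below, 5′ to 3′ on the strand of the gene, with CHR and CCAAT matches on either strand in capitals (a match on the other strand appears as its reverse complement). Cdk1 lies at chr10:69352913-69353042 (minus strand), Top2a at chr11:99024190-99024319 (minus), Ube2c at chr2:164769799-164769928 (plus), Cdc20 at chr4:118437344-118437473 (minus), Kpna2 at chr11:106999526-106999655 (minus), Hmgb2 at chr8:57511713-57511842 (plus), Lbr at chr1:181842402-181842531 (minus) and Nusap1 at chr2:119618168-119618297 (plus).
Cdk1: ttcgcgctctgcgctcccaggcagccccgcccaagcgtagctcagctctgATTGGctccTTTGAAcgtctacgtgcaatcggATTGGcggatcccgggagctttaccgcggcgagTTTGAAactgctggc
Top2a: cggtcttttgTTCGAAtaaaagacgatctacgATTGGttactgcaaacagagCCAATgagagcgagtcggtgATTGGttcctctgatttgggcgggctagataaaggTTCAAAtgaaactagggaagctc
Ube2c: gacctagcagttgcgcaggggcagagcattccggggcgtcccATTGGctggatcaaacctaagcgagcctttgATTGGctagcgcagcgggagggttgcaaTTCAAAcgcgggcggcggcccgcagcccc
Cdc20: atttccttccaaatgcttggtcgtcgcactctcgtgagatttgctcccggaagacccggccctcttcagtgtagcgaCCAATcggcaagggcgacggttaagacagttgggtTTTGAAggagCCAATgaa
Kpna2: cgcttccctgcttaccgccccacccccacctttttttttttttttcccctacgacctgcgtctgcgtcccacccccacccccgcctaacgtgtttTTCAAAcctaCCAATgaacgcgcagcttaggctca
Hmgb2: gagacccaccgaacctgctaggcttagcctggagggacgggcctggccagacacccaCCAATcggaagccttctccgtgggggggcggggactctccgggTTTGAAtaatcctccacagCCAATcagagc
Lbr: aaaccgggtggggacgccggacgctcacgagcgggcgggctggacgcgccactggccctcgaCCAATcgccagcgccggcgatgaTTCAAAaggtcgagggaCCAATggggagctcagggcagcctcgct
Nusap1: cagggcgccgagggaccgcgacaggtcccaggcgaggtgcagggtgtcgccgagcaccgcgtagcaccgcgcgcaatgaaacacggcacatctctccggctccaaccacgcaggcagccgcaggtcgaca
In the first 7 of these a CHR lies close to the start with at least 1 CCAAT box beside it, and Nusap1 holds neither string. The 8 do not stand for the whole list: Plk1, Ccnb1 and Cenpf, which also recur below, have no CHR in these 130 bases. Neither motif was found in the 300-base window of Birc5, G2e3, Nuf2, Nusap1 and Tacc3.

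Summed over the 57 genes, the level differed between the cultures of experiment 1 by up to 1.29-fold. Hashtags 1 to 8 of experiment 1 stood at 8734, 8768, 9185, 9560, 7624, 7586, 7401 and 7423 CPM. Hashtag 4 was the highest and hashtag 7 the lowest, with a ratio of 1.29 (interval 1.28 to 1.30). The next highest were hashtags 3, 2 and 1. In experiment 2 the sums of hashtags 1 to 8 were 7572, 7814, 7343, 8715, 7486, 7334, 8746 and 8714 CPM. There hashtags 7, 4 and 8 were the 3 highest, at 8714 to 8746 CPM, and hashtag 7 stood 1.19-fold above hashtag 6 (1.18 to 1.20). Without the abundant Hmgb2 and Tubb4b, hashtag 4 was the highest of experiment 2 (6652 CPM, beside 6534 in hashtag 7) and hashtag 6 the lowest (5418). In experiment 1, hashtags 4 and 7 were then still the highest and lowest (7283 and 5431 CPM). The S-phase genes did not have the same order as the 57 genes. In experiment 1 their sums were 5366, 5297, 5679, 5689, 5527, 5547, 4681 and 4902 CPM, so that hashtags 5 and 6 lay inside the range of hashtags 1 to 4 for S-phase genes and below all 4 for the G2 and mitosis genes. In experiment 2 the S-phase sums ran from 3959 CPM (hashtag 6) to 4698 (hashtag 7), with hashtags 1 to 4 between 4629 and 4655.

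**Figure D1:**
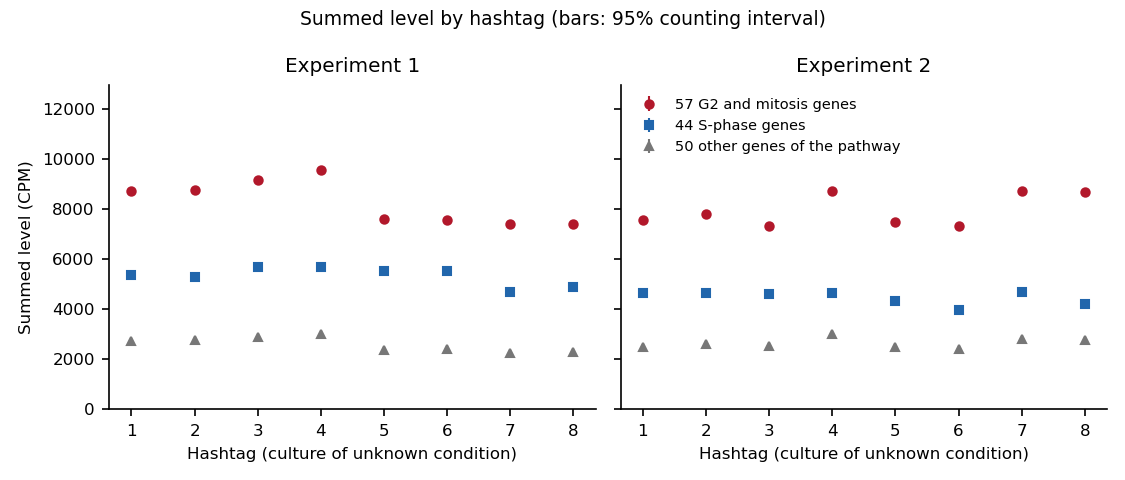
Summed level in counts per 1000000 UMIs (vertical axis) for each hashtag (horizontal axis) of the 2 experiments, for the 57 G2 and mitosis genes (red circles), 44 S-phase genes (blue squares) and 50 other genes of the pathway (grey triangles). The counting intervals are smaller than the symbols. Hashtags 1 to 4 of experiment 1 and hashtags 4, 7 and 8 of experiment 2 are high for the red circles.

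Gene by gene, the highest hashtag of experiment 1 was at least 1.5-fold the lowest for 26 of the 57 (45.6%), beside 26.6% of the 8767 genes tested. In experiment 2 it was 11 of 57 (19.3%), beside 36.0% of all genes, so the share of these genes lay above the background in the first experiment and below it in the second. The median ratio was 1.49 for the 57 genes and 1.31 for all genes in experiment 1, and 1.35 and 1.38 in experiment 2. With every cell thinned to 10000 UMIs the counts were 29 (34.3% of all genes) in experiment 1 and 22 (45.4% of all genes) in experiment 2. Without hashtag 6, experiment 2 had 7 such members, with no share of all genes given for that setting. Of 50 other genes of the pathway, 21 and 13 passed the same fold in experiments 1 and 2, and of 44 S-phase genes 1 and 2 did. Hashtag 4 of experiment 1 was the highest for 42 of the 57 and among the 4 highest for all 57, and hashtags 1, 2 and 3 were among the 4 highest for 53, 52 and 53. In experiment 2, hashtags 4, 7 and 8 were among the 4 highest for 53, 52 and 50 members, hashtag 2 for 40, and hashtag 6 was the lowest for 27. How often each hashtag was the highest or lowest over all genes is not given, so these rankings cannot be set against a background.

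**Figure D2:**
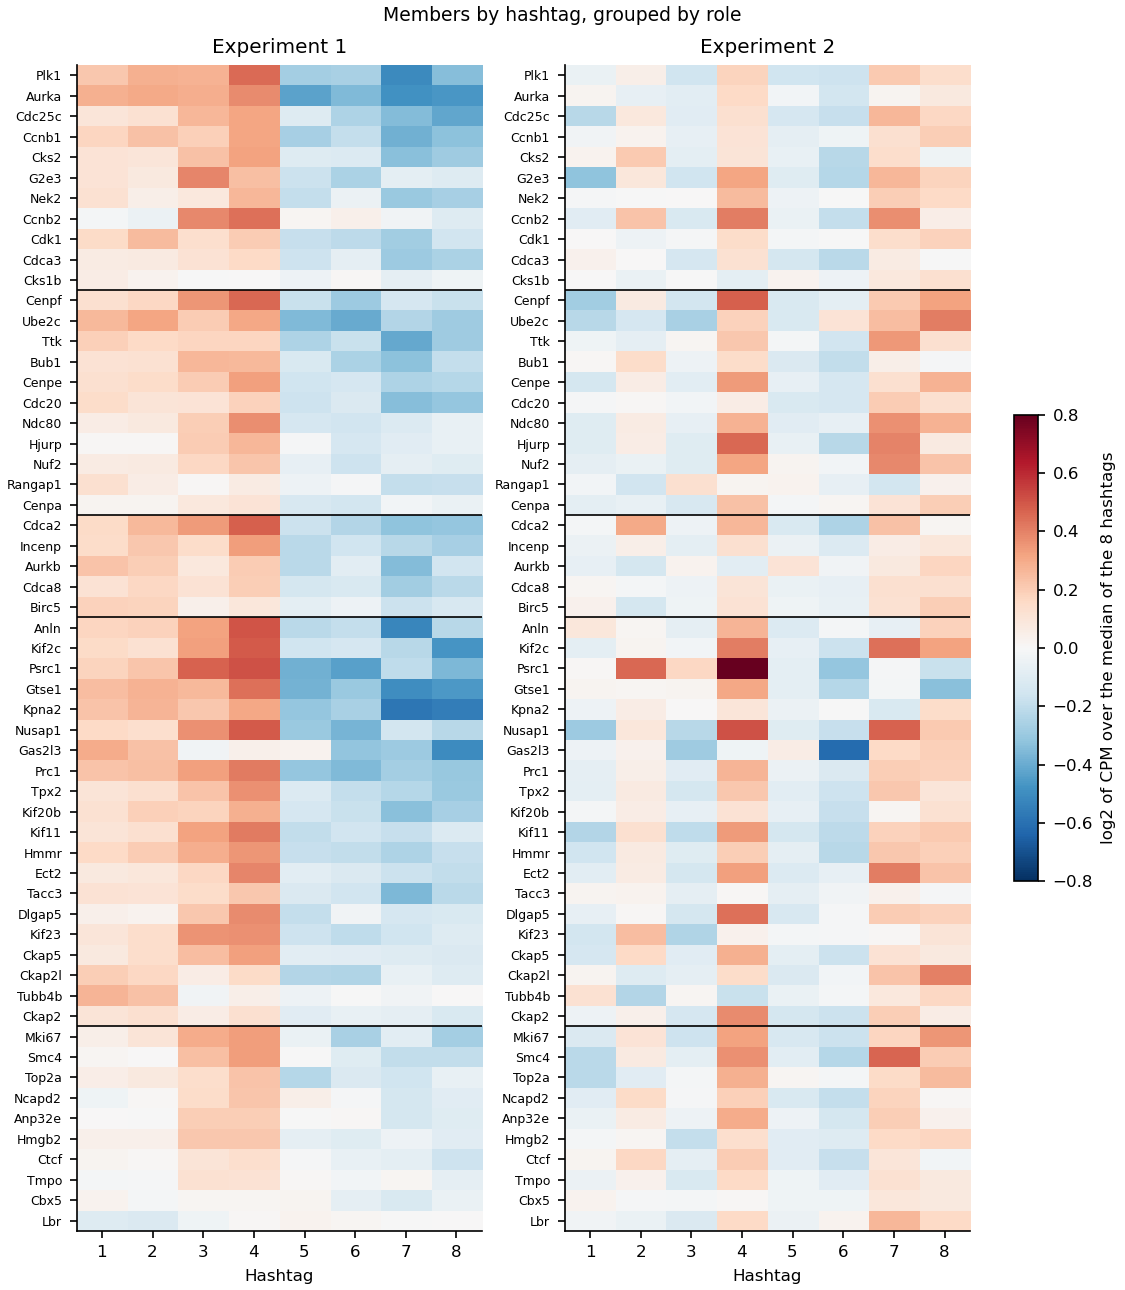
Level of each of the 57 genes (rows, by role, with lines between the 5 roles) in each hashtag (columns), as the log2 of its CPM over its median of the 8 hashtags of that experiment. Red is above and blue below the gene's median. Columns 1 to 4 of experiment 1 are mostly red, and there the chromatin genes at the bottom are paler than the kinases, motors and spindle genes above. Column 4 of experiment 2 is mostly red.

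The group named kinase engine holds Cdk1, its cyclins Ccnb1 and Ccnb2, the adaptors Cks1b and Cks2, and the kinases Plk1, Aurka and Nek2. Cdc25c, Cdca3 and G2e3 were placed with them, 11 members in all. Of these, 6 passed 1.5-fold in experiment 1 and 2 in experiment 2, beside 26.6% and 36.0% of all genes. Plk1, the polo kinase that promotes mitotic entry and centrosome maturation, stood at 58.8, 61.7, 61.4, 69.2, 41.9, 42.3, 35.5 and 40.0 CPM in hashtags 1 to 8 of experiment 1. Hashtag 4 was the highest and hashtag 7 the lowest, 1.95-fold apart (1.80 to 2.12). Experiment 2 had Plk1 at 50.5, 54.1, 46.9, 59.1, 46.8, 46.5, 60.4 and 57.7 CPM, with a narrower spread of 1.30-fold. Ccnb1, cyclin B1, stood at 114, 120, 116, 126, 84.4, 88.9, 77.7 and 80.8 CPM in experiment 1, with a ratio of 1.63 (1.54 to 1.72). Cyclin B1 thus had the same highest and lowest hashtag as Plk1. In experiment 2 Ccnb1 stood at 108, 112, 105, 119, 105, 107, 120 and 126 CPM, with a ratio of 1.20. Cdk1 itself was less spread, at 170, 183, 169, 176, 135, 133, 127 and 138 CPM in experiment 1 (ratio 1.44, 1.38 to 1.51) and 164, 159, 163, 181, 162, 163, 180 and 186 CPM in experiment 2 (ratio 1.17). Aurka, the centrosomal Aurora kinase, had ratios of 1.82 and 1.24 in experiments 1 and 2. Ccnb2, cyclin B2, was high in hashtags 3 and 4 of experiment 1 (127 and 133 CPM) and at 100.6 CPM or less in the other 6. The smallest ratio of all members in experiment 1 was that of Cks1b (1.09), whose product binds cyclin-dependent kinases and also serves the SCF ubiquitin ligase before S phase.

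Kinetochore, checkpoint and anaphase-promoting complex genes numbered 11. Of them, 4 passed 1.5-fold in experiment 1 and 3 in experiment 2, beside 26.6% and 36.0% of all genes. Cenpf, a large protein of the outer kinetochore, stood at 87.6, 112, 96.3, 148, 97.7, 100.9, 123 and 133 CPM in hashtags 1 to 8 of experiment 2, with a ratio of 1.69 (1.61 to 1.77). Hashtag 4 was the highest, followed by hashtags 8 and 7. Cenpf in experiment 1 ran from 86.9 CPM (hashtag 6) to 146 (hashtag 4), 1.68-fold. Ube2c, the ubiquitin-conjugating enzyme of the anaphase-promoting complex, had ratios of 1.64 and 1.59, with hashtags 2 and 4 highest in experiment 1 and hashtag 8 highest in experiment 2. Its level in hashtag 6 of experiment 2 was 318 CPM, above those of hashtags 1, 2, 3 and 5 (246 to 270), although hashtag 6 was the lowest of all for 27 members. Cenpa, the histone H3 variant that marks centromeres, had ratios of 1.19 and 1.29.

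The chromosomal passenger complex (Aurkb, Incenp, Birc5 and Cdca8) corrects chromosome attachments and steers cytokinesis, and Cdca2 recruits a phosphatase to chromosomes. Aurkb, its kinase, stood at 79.4, 77.7, 71.7, 77.9, 58.3, 63.8, 53.4 and 61.0 CPM in experiment 1, with a ratio of 1.49 (1.39 to 1.59). In experiment 2 it stood at 74.0, 70.0, 78.7, 72.8, 83.3, 75.9, 81.5 and 87.0 CPM, with a ratio of 1.24. Hashtag 4 of experiment 2, high for most members, was the second lowest for Aurkb, and hashtag 5 the second highest. Of the 5 genes, Cdca2 (1.74) and Incenp (1.52) passed 1.5-fold in experiment 1 and none did in experiment 2. The shares of all genes were 26.6% and 36.0%.

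Of the 20 motors, spindle proteins and cytokinesis factors, 13 passed 1.5-fold in experiment 1 and 5 in experiment 2. Over all genes the shares were 26.6% and 36.0%. Anln, anillin, the scaffold of the contractile ring, stood at 26.4, 26.6, 29.3, 33.2, 20.2, 20.6, 16.4 and 20.1 CPM in experiment 1, 2.03-fold apart (1.80 to 2.30). It was the largest ratio of any member in experiment 1, and without hashtag 7 it was 1.65. Kif2c, a kinesin that depolymerizes microtubules at the centromere, stood at 28.9, 28.3, 32.7, 36.6, 23.3, 23.7, 22.3 and 18.8 CPM, a ratio of 1.95 (1.71 to 2.23). Gtse1, which stabilizes spindle microtubules, stood at 11.4, 11.6, 11.5, 12.98, 7.38, 7.80, 6.80 and 6.96 CPM, a ratio of 1.91 (1.58 to 2.31). Hashtag 4 was the highest for each of these 3 genes, and hashtags 1, 2 and 3 followed it.
Psrc1, a microtubule-binding spindle protein, was counted with 83 to 327 UMIs per hashtag in experiment 1, so that its intervals are wide. It stood at 8.30, 8.54, 10.1, 10.4, 5.62, 5.42, 6.35 and 5.72 CPM there, a ratio of 1.92 (1.58 to 2.35). In experiment 2 it stood at 6.82, 9.32, 7.59, 12.9, 6.40, 5.46, 6.72 and 5.97 CPM, a ratio of 2.35 (1.93 to 2.88), the largest of any member there. Hashtags 7 and 8 of experiment 2, high for most members, were not high for Psrc1. Nusap1, which bundles spindle microtubules near chromosomes, stood at 78.0, 101.4, 81.8, 136, 89.2, 84.0, 132 and 110 CPM in experiment 2, 1.74-fold apart (1.66 to 1.83). Hashtags 4, 7 and 8 were its 3 highest, as for the sum. Gas2l3, a linker of actin and microtubules, stood at 11.6, 12.2, 9.77, 11.6, 12.4, 7.75, 13.3 and 13.6 CPM in experiment 2, 1.75-fold apart (1.46 to 2.10). Hashtag 6 was low for this gene, and without it the ratio was 1.39. Tubb4b, a beta-tubulin, had its highest level in hashtag 1 of experiment 1 (685 CPM) and in hashtag 8 of experiment 2 (782), and hashtag 4 of experiment 2 was among its 2 lowest (617). Tacc3, which anchors a microtubule-bundling complex at the spindle, had the smallest ratio of experiment 2 (1.08).

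Of 10 chromatin and nuclear envelope genes, 1 passed 1.5-fold in each experiment, beside 26.6% and 36.0% of all genes. Their median ratio in experiment 1 (1.251) was the lowest of the 5 roles. In experiment 2 their median (1.31) lay above those of the kinase engine (1.26) and the passenger complex (1.24). Mki67, the proliferation antigen that coats mitotic chromosomes, was the 1 gene in experiment 1, at 252, 261, 298, 306, 234, 203, 229 and 201 CPM, a ratio of 1.52 (1.46 to 1.59). In experiment 2 it stood at 171, 200, 165, 232, 170, 164, 209 and 237 CPM, 1.44-fold apart. Top2a, the topoisomerase that untangles sister chromatids, stood at 554, 563, 587, 625, 456, 492, 476 and 512 CPM in experiment 1 (ratio 1.37, 1.34 to 1.40). In experiment 2 it stood at 350, 383, 403, 495, 410, 402, 452 and 484 CPM (ratio 1.41). Hashtag 4 was the highest for Top2a in both experiments. Smc4, a condensin subunit, stood at 241, 293, 265, 359, 263, 239, 385 and 321 CPM in experiment 2, 1.61-fold apart (1.56 to 1.66), the 1 gene of its role past 1.5-fold there. Hmgb2, a DNA-bending protein, contributed the most UMIs of any member to the sum, at 1361 to 1690 CPM in experiment 1 and 1152 to 1481 in experiment 2. Lbr, the lamin B receptor, was the 1 member with its lowest level in hashtag 2 of experiment 1, and its ratio was 1.10. The heterochromatin protein Cbx5 had ratios of 1.11 and 1.09.

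Within cells, the same genes were compared after thinning each cell to 10000 UMIs, which left 8224 cells in experiment 1 and 7746 in experiment 2. For each member, the tenth of cells with the most UMIs of the other 56 members was set against the remaining cells, so that a gene did not choose its own cells. In experiment 1, 46 of 57 members were at least 2-fold higher in the tenth, beside 1.81% of all genes, and 50 of 57 were in experiment 2, beside 3.12%. The median ratio was 2.76 and 2.90 for members in the 2 experiments, and 1.04 for all genes in each. Nusap1 had the largest ratio in experiment 1 at 279 against 42.4 CPM (6.58-fold), followed by Ube2c at 768 against 124 (6.21-fold), Cenpf (5.69), Plk1 (4.67), Kpna2, an importin that holds spindle factors (4.31), and Prc1, the midzone bundler of antiparallel microtubules (4.12). The order in experiment 2 began with Cenpf (6.48), Nusap1 (5.95), Ube2c (5.81), Plk1 (4.57), Hmmr, a spindle-pole protein (4.31), and Cdc25c, the phosphatase that activates Cdk1 (4.28). The same 6 members were lowest in both experiments: Cbx5 (1.20 and 1.20), Anp32e, a histone chaperone (1.30 and 1.58), Lbr (1.32 and 1.68), Cks1b (1.40 and 1.59), Ctcf, the insulator protein (1.46 and 1.57), and Rangap1, a Ran regulator (1.49 and 1.63). By role, the median ratio was lowest for chromatin and envelope genes (1.65 and 1.94) and highest for motors, spindle and cytokinesis genes (3.15 and 3.52). Over the 57 members the ratios of the 2 experiments had a Spearman correlation of 0.93, across genes that are not independent of each other. Members with a CHR had a median ratio of 2.72 and 2.89, and the 11 with a promoter but no CHR had 2.89 and 3.11. Nusap1, with no CHR or CCAAT string in its window, was thus among the 2 highest, and Lbr, with both, among the lowest. Of the 50 other genes of the pathway, 35 and 37 were at least 2-fold higher in the tenth of cells with the most member UMIs. The S-phase genes moved the other way there: 39 and 37 of 44 were lower there, with median ratios of 0.76 and 0.71.

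Cells rich in S-phase mRNAs, called S-phase cells here, were chosen by the S-phase genes alone, none of which is a member. The tenth of cells with the most S-phase UMIs (834 and 822 cells) was set against all other cells, a comparison set after the data were seen. Of the members, 13 were at least 1.5-fold lower in the S-phase cells of experiment 1, beside 2.01% of all genes, and 13 in experiment 2, beside 3.94%. At least 1.5-fold higher were 0 members in each experiment, beside 2.49% and 3.33% of all genes. Ube2c was at 49.5 CPM in the S-phase cells against 204 in the other cells of experiment 1 (ratio 0.24) and at 65.6 against 281 in experiment 2 (0.23), the lowest ratio of any member in both. Cdc20, the activator of the anaphase-promoting complex, followed at 0.34 and 0.38, Cenpa at 0.36 and 0.31, Cdc25c at 0.36 and 0.41, and Cenpf at 0.40 and 0.42. Hmmr, Ccnb1, Psrc1, Plk1, Cenpe, Ccnb2 and Aurka also passed in both experiments, so that the 12 members lower in both came from the kinase engine (5), the kinetochore and anaphase-promoting complex group (5) and the spindle group (2). Tpx2, the spindle assembly factor that activates Aurka, passed in experiment 1 alone (0.65 and 0.73) and Kpna2 in experiment 2 alone (0.70 and 0.57). The highest ratios were those of Hjurp, the chaperone that loads Cenpa at centromeres (1.40 and 1.37), and Top2a (1.31 and 1.38), under the 1.5-fold limit. The median ratio was 0.89 and 0.84 over the 57 members and 1.004 and 1.007 over all genes. The cells highest for the 57 genes were also left out of both sides, which takes members from the other cells. In this setting, also chosen after seeing the data, Hjurp and Top2a passed 1.5-fold in both experiments, and 9 and 11 members were lower. No share of all genes is given for this setting, so these counts cannot be set against a background.

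**Figure D3:**
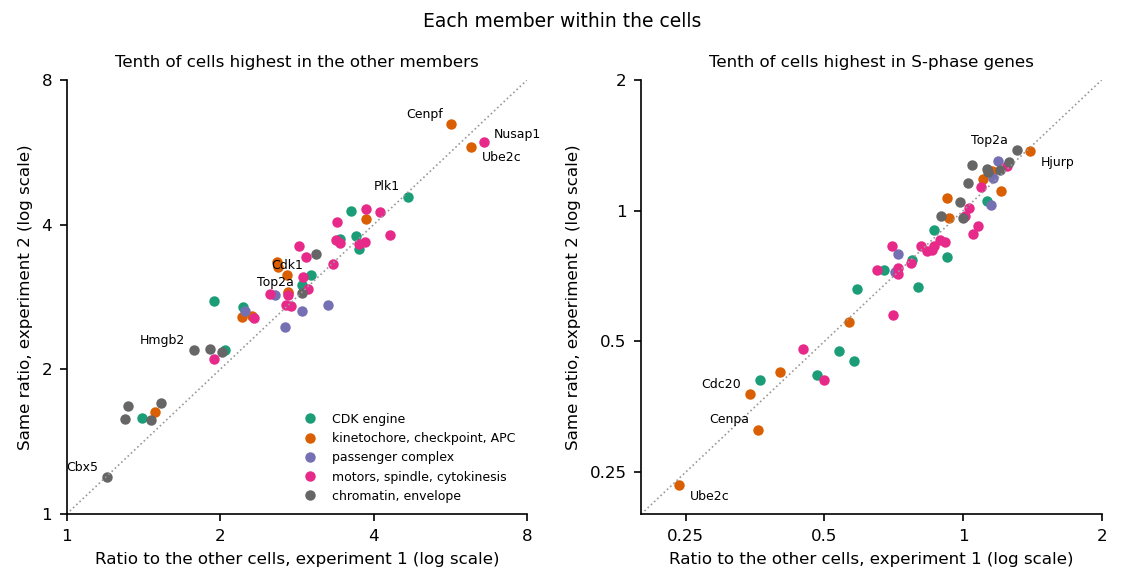
Ratio of each of the 57 genes between the tenth of cells named on each side and the other cells, in experiment 1 (horizontal) and experiment 2 (vertical), on log axes; colours give the role and the dotted line marks equal ratios. On the left the tenth has the most UMIs of the other 56 members, and Nusap1, Cenpf and Ube2c are highest. On the right the tenth has the most S-phase UMIs, and Ube2c, Cenpa, Cdc20 and Cdc25c lie under 0.5 in both experiments.

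The cells highest for the summed 57 genes held at least 142 member UMIs of 10000 in experiment 1 (838 cells) and 141 in experiment 2 (792 cells), against a median of 70 and 64 over all cells. The tenth is a range of a continuous score and not a cell type, and 545 and 467 cells lay within 10 UMIs of the limit. Before thinning, the high cells of experiment 1 had a median of 30766.5 UMIs and the cells high for neither list 24840, while in experiment 2 the medians were 27081 and 27713. The part of depth in the result was not tested.

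Across cultures, the share of cells in the tenth spread more widely than the summed level. Both come from the same score, and a share past a high limit can spread more than a mean. In experiment 1 it was 8.89%, 7.27%, 14.1%, 18.4%, 7.11%, 5.29%, 10.2% and 8.64% of the cells of hashtags 1 to 8. Hashtag 4 held the largest share (16.2 to 20.7%, exact Clopper-Pearson interval) and hashtag 6 the smallest (4.04 to 6.79%). The shares of experiment 2 were 4.20%, 9.90%, 4.28%, 18.9%, 6.13%, 8.76%, 17.2% and 14.9%, again with hashtag 4 the largest (16.5 to 21.5%). Thinning left out 42 to 212 cells of fewer than 10000 UMIs per hashtag in experiment 1 and 34 to 177 in experiment 2. Without thinning, ranked by CPM per cell, the shares of hashtag 4 were 18.1% and 17.1%, and those of hashtags 1 and 2 of experiment 1 were 9.14% and 7.92%. Hashtags 5 to 8 of experiment 1 then held 7.11%, 5.54%, 8.43% and 8.10%, so that hashtag 1 lay above all of them. The level in the cells outside the tenth had another order. In experiment 1 it was 7501, 7540, 7136, 7150, 6509, 6596, 5850 and 5997 CPM for hashtags 1 to 8. Hashtags 1 and 2 thus had the highest level outside the tenth. Their shares of high cells lay inside the range of hashtags 5 to 8 with thinned cells, but for hashtag 1 not without thinning. Hashtags 3 and 4 had the 2 largest shares with levels of 7136 and 7150 CPM. Hashtags 7 and 8 had the lowest level outside the tenth, with shares of high cells above that of hashtag 6. Experiment 2 had levels outside the tenth between 5958 CPM (hashtag 6) and 6706 (hashtag 1). Hashtag 4, with the largest share there, had the second lowest level outside it (6158 CPM), and hashtag 1, with the smallest share, had the highest.

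**Figure D4:**
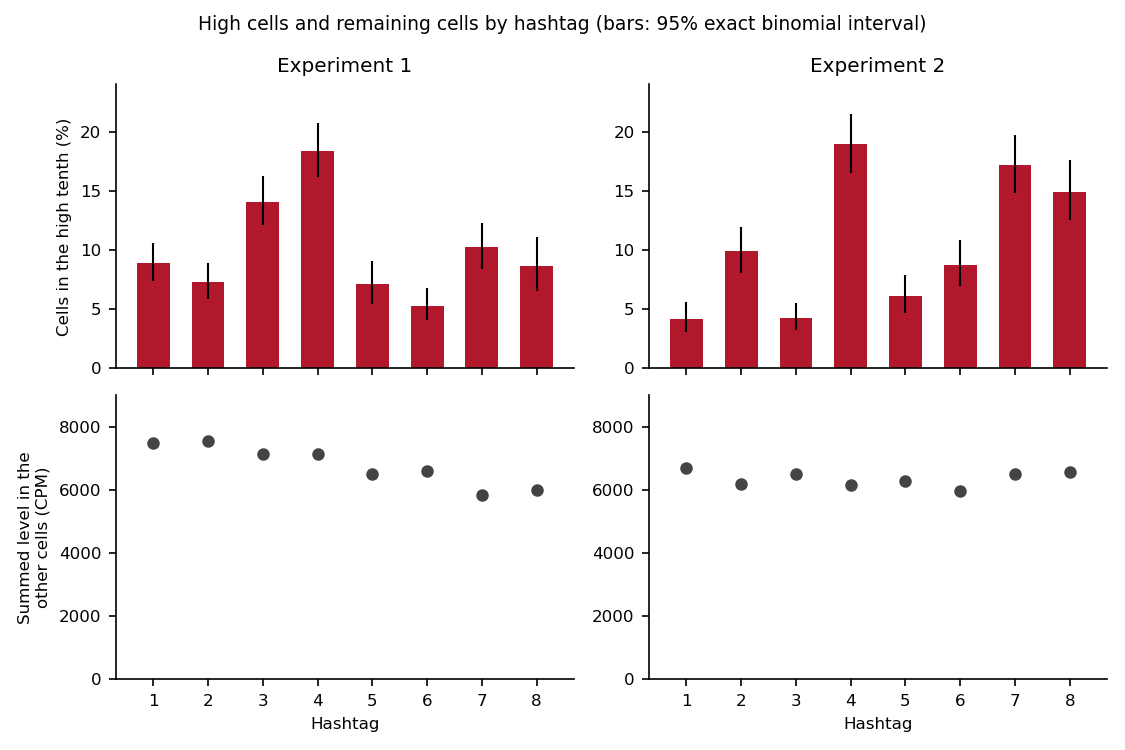
Top: percent of the cells of each hashtag in the tenth of cells with the most UMIs of the 57 genes, with exact 95% binomial intervals. Bottom: summed level of the 57 genes (CPM) in the other cells of the same hashtag. In experiment 2 the shares run from 4.20% to 18.9% while the level in the other cells stays between 5958 and 6706 CPM.

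Cells were also grouped by marker genes of the cell types such cultures could hold, none of which is a member. A cell entered a gate with UMIs of at least 3 listed markers, gates may share cells (2644 cells of experiment 1 were in both the progenitor and the T-lineage gate), and a gate is not a named cell type. The sort had kept CD45-positive and removed lineage-positive cells, which bears on the stromal, B-lineage, NK and mature myeloid gates. The T-lineage gate (such as Bcl11b, Cd3g and Tcf7) had a higher summed level than the other cells of the same hashtag in 8 of 8 hashtags of each experiment, at 8216 against 7476 CPM in experiment 1 (4590 cells) and 8178 against 6916 in experiment 2 (3624 cells). The widest gap was in hashtag 4 of experiment 2, at 9130 against 6866 CPM, and the narrowest in hashtag 1 of experiment 2, at 7157 against 7089. The progenitor gate (such as Kit, Flt3 and Spi1) was lower in 8 of 8 hashtags of experiment 1, at 7661 against 8512 CPM. In experiment 2 it was lower in 6 and higher in hashtags 1 and 2, at 7110 against 8153 CPM in all. The dendritic gate (MHC class II genes, Cd209a and Siglech) was lower in 8 of 8 hashtags of both experiments, at 7480 against 7985 CPM and 6696 against 7852 CPM. Its gap was small in hashtag 1, at 8222 against 8261 CPM in experiment 1 (97 cells) and 7018 against 7109 in experiment 2 (62 cells). These 3 gates together show cells with T-lineage markers above their neighbours in the same culture, and cells with dendritic markers below. The size of the gap differed between cultures and was small in some.
The NK and innate lymphoid gate held 163 and 308 cells, and its level was 8816 against 7871 CPM in experiment 1 and 9492 against 7424 in experiment 2. It was higher in all 4 hashtags of experiment 1 and all 5 of experiment 2 that had at least 20 such cells, and 20.9% and 25% of its cells lay in the tenth highest for the 57 genes. Their S-phase level was not raised, at 4967 against 5311 CPM and 4007 against 4542 CPM. The mature T gate of experiment 2 (128 cells with at least 3 of Cd8a, Cd8b1, Trac and Cd4) stood at 9636 against 7470 CPM. Of its cells, 89 were in hashtag 4, a culture with a high sum, where the gate stood at 9993 against 8451 CPM. Hashtag 3 alone also had at least 20 such cells (25 cells, 8804 against 6873 CPM). The B-lineage gate of experiment 2 was the highest of all at 10966.2 CPM (10713.0 to 11223.7) in 65 cells, and no hashtag held 20 of them. At the other end, the stromal gate of experiment 2 (collagen and matrix genes) stood at 3124 CPM against 7630 in 212 cells, and was lower in all 6 hashtags with 20 or more such cells. Its cells had a median of 49939.5 UMIs before thinning, against 27070.5 in the others, and an S-phase level of 1775 against 4598 CPM. The early granulocyte, late neutrophil, monocyte and mast cell gates lay between 7112 and 7794 CPM. In experiment 1 the mature T, late neutrophil, mast, B-lineage and stromal gates held 3, 32, 46, 7 and 16 cells and were not described. The part that these cells have in the differences between hashtags was not tested.

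**Figure D5:**
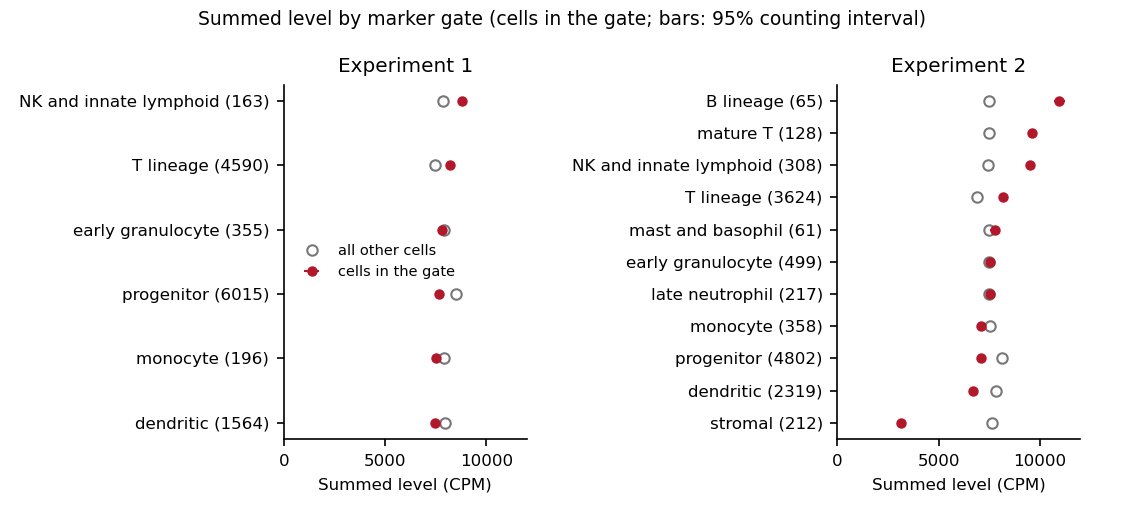
Summed level of the 57 genes (CPM, horizontal) in cells of each marker gate (red) and in all other cells (open circles), with the number of cells in each gate in parentheses and 95% counting intervals that are mostly smaller than the symbols. The NK and T-lineage gates lie right of the other cells in both experiments, and the stromal gate of experiment 2 lies far left at 3124 CPM.

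Between the experiments, with 1 library each, the summed level was 8448 CPM in experiment 1 and 7878 in experiment 2, 0.93 of the first (0.931 to 0.934). Library, culture time and the mix of cultures cannot be told apart in this comparison. Of the members, 2 were at least 25% higher in experiment 2, beside 6.00% of all genes: Ube2c (223 and 295 CPM, ratio 1.32) and Nusap1 (76.7 and 98.7 CPM, ratio 1.29). At least 20% lower were 17, beside 31.2% of all genes, and the median ratio of the 57 (0.90) was the same as that of the 8770 genes tested (0.90). Both counts lay near the background. Within the list the roles differed. The chromatin and envelope genes summed to 3768 and 3132 CPM (ratio 0.83), close to the S-phase genes (0.83), with Lbr at 120 and 75.8 CPM the lowest (0.63). The passenger complex summed to 653 and 692 CPM (1.06) and the kinetochore group, which holds Ube2c, to 1055 and 1083 (1.03). Sums were 1299 and 1304 CPM for the kinase engine (1.004) and 1674 and 1667 for motors, spindle and cytokinesis genes (0.996). Median ratios over members were 1.11 for the passenger complex, 1.01 for the kinase engine and 0.90 for the kinetochore group. They were 0.88 for motors, spindle and cytokinesis genes and 0.78 for chromatin and envelope genes.

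By likeness over cells, the non-members of at least 50 CPM whose level followed the summed 57 genes most closely, of 2500 compared, were Ube2s, the chain-extending enzyme of the anaphase-promoting complex (Pearson 0.63 in experiment 1 and 0.69 in experiment 2), the tubulins Tubb5 (0.62 and 0.64) and Tuba1b (0.60 and 0.63), and Pclaf, a partner of the replication clamp (0.56 and 0.57). They were followed by H2afz (0.52 and 0.59), Ccna2, cyclin A2 (0.52 and 0.56), Smc2 (0.51 and 0.55), Nucks1 (0.47 and 0.52), Knl1 (0.47 and 0.45) and H2afx (0.44 and 0.58). These are correlations over 8224 and 7746 thinned cells that share libraries, and they describe the cells only. The list held a condensin subunit (Smc2) and a kinetochore scaffold (Knl1) beside tubulins and histone variants.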

How the data were processed

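Libraries were 10x Chromium v3, per the labels' protocols. Per the submitters' processing notes, Cell Ranger 3.0.0 and mm10/GRCm38 were used. The matrices deposited by the authors hold raw counts of UMIs per gene and cell, and the hashtag tables deposited hold raw counts for 8 hashtags named by sequence only, numbered here 1 to 8 in column order. Whether the tag counts are molecules or reads is not given in the sources used here. Cells with at least 500 genes, under 10% mitochondrial UMIs, a top tag of at least 50 counts and at least 3 times the second were kept, and cells with no such call, which may include doublets, were left out. UMIs were summed per hashtag and scaled to counts per 1000000 (CPM). Intervals are exact Poisson, conditional or Clopper-Pearson at 95%. Thinning drew 10000 UMIs per cell once. TMM came from edgeR 4.0.16 and size factors from DESeq2 1.42.0, for scaling only. On simulated counts every one of the 200 genes set 2-fold apart in 1 hashtag was recovered at the 1.5-fold limit in each experiment. Those counts varied by counting error alone. The simulation therefore does not bear on smaller differences or on the spread between cultures. Members are in named roles; values in every hashtag are given for the 5 widest ratios per experiment and 6 well-known markers. The comparison of S-phase cells was set after the data were seen. The members and lists were chosen with earlier results of these data known.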

Additional observations from a re-analysis of the deposited data

Results flagged for a closer look

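Barcodes that passed the cell filter but had no hashtag call were in no comparison, and they also held the G2 and mitosis mRNAs. In experiment 1 the 535 such barcodes stood at 8364 CPM for the summed 57 genes (8327 to 8401), inside the range of the hashtags, with a median of 43493 UMIs per barcode. In experiment 2 the 1879 such barcodes stood at 7083 CPM (7062 to 7104), under the lowest hashtag (7334 CPM), with a median of 29199 UMIs. No control samples give a background level for either value. No hashtag lay far from the other 7 for any of the 57 genes or their sum in either experiment, by Dixon's test at the 95% level over 58 values each.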

How the results depend on the processing

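The ratio of the highest to the lowest hashtag for the summed genes in experiment 1 (1.29) was 1.274 with a stricter cell filter (1000 genes, 5% mitochondrial UMIs), 1.42 as a mean over cells, 1.282 with TMM scaling and 1.275 with DESeq2 scaling, and 1.241 to 1.292 with each hashtag left out. In experiment 2 (1.19) it was 1.226 with the stricter cell filter, 1.211 with a top tag of at least 5 times the second, 1.2497 with thinned cells, 1.258 as a mean over cells, 1.231 with TMM and 1.234 with DESeq2, and 1.188 to 1.193 with each hashtag left out. The number of members at least 1.5-fold apart fell with a mean of at least 50 CPM, which 39 members passed, to 14 in experiment 1 and 6 in experiment 2, and was 22 in experiment 2 with thinned cells. It ranged from 18 to 26 with each hashtag left out in experiment 1 (18 without hashtag 4) and from 7 to 11 in experiment 2 (7 without hashtag 6). With the 50 CPM filter or a hashtag left out, no share of all genes is given. These counts therefore cannot be set against a background. The ratio of the experiments (0.93) was 0.9367 with the stricter tag rule, 0.916 with the stricter cell filter, 0.9514 with thinned cells and 0.9824 with TMM, and 0.9188 to 0.9533 with each hashtag left out. The number of members higher in experiment 2 was 1 to 2 and of members lower 15 to 19 with each hashtag left out. For these counts too, no share of all genes is given. The ratio of the highest to the lowest gate (1.18 and 3.51) was 1.138 and 2.45 with 2 markers and 1.254 and 3.644 with 4. A CHR stood in 16 of 50 members in the 100 bases before the start alone, beside 7.18% of all genes. With the cells highest for the members left out, a setting chosen after seeing the data, 2 members in each experiment were at least 1.5-fold higher in the S-phase cells. No share of all genes is given for that setting. The cause of these shifts was not tested, except that fewer members or bases were searched where said. Ratios of the highest to the lowest hashtag or gate cannot fall below 1, so they cannot show a reversed direction. The ratio of the experiments could, and it stayed below 1 in the settings given. The order of hashtags did change. With thinned cells the lowest sum of experiment 1 was in hashtag 8 (6964 CPM), not hashtag 7 (7102). The highest of experiment 2 was then in hashtag 4 (8590 CPM), not hashtag 7 (8445). TMM moved a hashtag by -0.09 to 0.05 on the log2 scale in experiment 2. The planned count of KEN boxes was not run, since no protein sequences were used here. No paired analysis was possible because the hashtags carry no replicate numbers or conditions. With 1 library per experiment and unknown conditions, depth limits only the counting error, which is widest for genes of few UMIs such as Psrc1.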

Other observations

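The summed level of the 57 genes over the cultures of experiment 1 has a gap: 8734, 8768, 9185 and 9560 CPM in hashtags 1 to 4, and 7624, 7586, 7401 and 7423 CPM in hashtags 5 to 8. In experiment 2 the values 7334, 7343, 7486, 7572 and 7814 CPM (hashtags 6, 3, 5, 1 and 2) are followed after a gap by 8714, 8715 and 8746 CPM (hashtags 8, 4 and 7). The labels put none of these cultures in a condition.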
